A study of Sus scrofa with 22 samples.

Results

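The miR-30 family was followed in small RNA libraries of subcutaneous fat from 22 female pigs of 6 months. Its members were taken as every mature miRNA named miR-30a to miR-30e, with or without an arm, which gave 3 of the 250 names in the 3 deposited count tables: miR-30a-5p, miR-30b-5p and miR-30c-5p. No row used here carried the name miR-30d or miR-30e. The passenger strand miR-30c-1-3p, whose name holds a gene number that the rule does not cover, is given beside the members where it was measured. The libraries came from Hampshire pigs with thick (5) or thin (2) fat, Pietrain pigs with thick (4) or thin (3) fat, and Large White pigs with thick (4) or thin (4) fat. The animals shared sex and age and received no treatment in the labels, which give the fat class in words only, with no thickness in mm.

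In animals, the miR-30 family comes from several gene copies whose mature strands share 1 seed, the stretch that pairs with target messenger RNAs, and differ towards the 3′ end. In human adipose-derived stem cells, miR-30 members accumulate during fat cell differentiation, and RUNX2, a regulator of bone cell fate, is among the targets described there. In mouse fat cells, miR-30b and miR-30c promote thermogenic genes through the repression of RIP140. In the Sscrofa11.1 gene list of RefSeq, used here only for names and order, MIR30A neighbours MIR30C-2, MIR30B neighbours MIR30D and MIR30C-1 neighbours MIR30E, each pair with no gene listed between its members.

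The sequences that carry the family in these libraries are shown first, since the name miR-30a-5p was found to cover more than 1 of them. Each is written 5′ to 3′ as deposited, with bases 2 to 8, the seed, in capitals.
miR-30a-5p, C12 form, most abundant: uGUAAACAuccccgacuggaagc
miR-30a-5p, U12 form, most abundant: uGUAAACAuccucgacuggaagcu
miR-30a-5p, U13 form, most abundant: uGUAAACAuccuugacuggaagcc
miR-30b-5p, most abundant: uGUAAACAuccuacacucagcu
miR-30c-5p, most abundant: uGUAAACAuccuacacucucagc
miR-30c-1-3p, most abundant: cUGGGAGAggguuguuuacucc
The seed GUAAACA was identical in the 3 members, and no other of the 250 names had it in its most abundant sequence. It was intact in 99.95% of miR-30a-5p reads, 100% of miR-30b-5p reads and 99.9% of miR-30c-5p reads. The passenger strand has another seed, UGGGAGA.

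The name miR-30a-5p covered 242 sequences with 965529 reads, which fell into 3 forms by bases 12 and 13, counted from 1 at the 5′ end. The C12 form held 57.3% of these reads in 81 sequences, the U12 form 41.5% in 144 sequences and the U13 form 1.19% in 14 sequences. The C12 form differs from the U12 form by U12C, and the U13 form differs from it by C13U. As background, in the human and mouse reference sequences miR-30d-5p differs from miR-30a-5p by U12C and miR-30e-5p by C13U. The files place all 3 forms under the name miR-30a-5p, so the level of that name is a sum over them. The endings listed also differed between forms. The ending GACUGGAAGCU had 141637 reads in the U12 form and no row in the C12 and U13 forms used here, whereas the ending GACUGGAAGC had 233836 reads in the C12 form, 85277 in the U12 form and 1585 in the U13 form. The ending GACUGGAAGCC, of the same length as GACUGGAAGCU, had 28315, 23779 and 3145 reads in the C12, U12 and U13 forms. Whether C12 and U13 reads ending in GACUGGAAGCU were absent from the fat or only from the rows used here cannot be told. The levels, shares and read lengths of the forms, and the level of miR-30a-5p, carry this limit.

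miR-30b-5p and miR-30c-5p were narrower in sequence. The sequence shown above held 67.5% of the 14108 reads of miR-30b-5p and 50.8% of the 189093 reads of miR-30c-5p, against 24.2% for the leading sequence of miR-30a-5p. The next 2 sequences of miR-30c-5p ended in 1 more base or in another base.
miR-30c-5p, rank 2: uGUAAACAuccuacacucucagcu
miR-30c-5p, rank 3: uGUAAACAuccuacacucucagu
These took 19.9% and 12.5% of its reads. Another sequence of 18 nt, counted under miR-30b-5p with 273 reads, is a prefix common to miR-30b-5p and miR-30c-5p, so its assignment is uncertain.
miR-30b-5p, 18 nt: uGUAAACAuccuacacuc
Reads that began at another base than the leading sequence, which would shift the seed, were rare: 0.255% of miR-30a-5p reads, none of the miR-30b-5p rows and 0.0391% of miR-30c-5p reads.

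Library totals lay between 431542 and 3137757 reads, and the 3 members had reads in all 22 libraries. The lowest count was 11314 for miR-30a-5p, 1808 for miR-30c-5p and 133 for miR-30b-5p, all in Hampshire thick replicate 2, the smallest library. The fat marker miRNAs miR-148a-3p and miR-143-3p together had 183101 to 531695 CPM, the skeletal muscle markers 108 to 2172 CPM and the leukocyte markers 410 to 1686 CPM, where CPM is the count scaled to a common library size, after correction by edgeR's trimmed mean of M-values (TMM). The smooth muscle and stroma markers miR-145-5p and miR-143-3p, the latter shared with the fat list, had 53475.5 to 217462 CPM. The endothelium markers had 31244 to 73143 CPM. Shares of cell types cannot be read from these sums. The liver markers miR-122 and miR-192 were at 0 in some libraries and reached 27705 CPM in Hampshire thin replicate 1; their part in any result was not tested. In the authors' deposited table for Large White, the fold changes went against the labels for 2 libraries: across sequences, fold changes recomputed here by the labels correlated with it at r = -0.653, while swapping the labels of thick replicate 1 with thin replicate 1 brought r to -1.0, the sign following from the table's thin minus thick direction. Sequences are not independent replicates, so no p is given. Both libraries were kept as labelled, and values with them exchanged or left out are given where they matter.

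Taken by name, with its 3 forms summed, miR-30a-5p was among the abundant miRNAs of pig fat and the other members were far below it. It averaged 25606 ± 5458 CPM (SD, n = 22) and took 2.58% of all named reads, rank 13 of 250 names. Its C12 form averaged 14387 ± 3390 CPM, its U12 form 10896.5 ± 2820 CPM and its U13 form 320 ± 105 CPM (SD, n = 22). miR-30c-5p averaged 4916 ± 921 CPM (SD, n = 22), rank 28, and miR-30b-5p 387 ± 122 CPM (SD, n = 22), rank 71. Together they took 3.12% ± 0.721 of reads (SD, n = 22). Within the family as named, miR-30a-5p held 82.7%, miR-30c-5p 16.0% and miR-30b-5p 1.3% of reads, and this order was the same in every library. The passenger strand miR-30c-1-3p averaged 7.95 CPM and was at 0 in 5 libraries, and since the smallest deposited count above 0 was 6, such a 0 covers anything up to 5 reads per sequence.

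**Figure D1:**
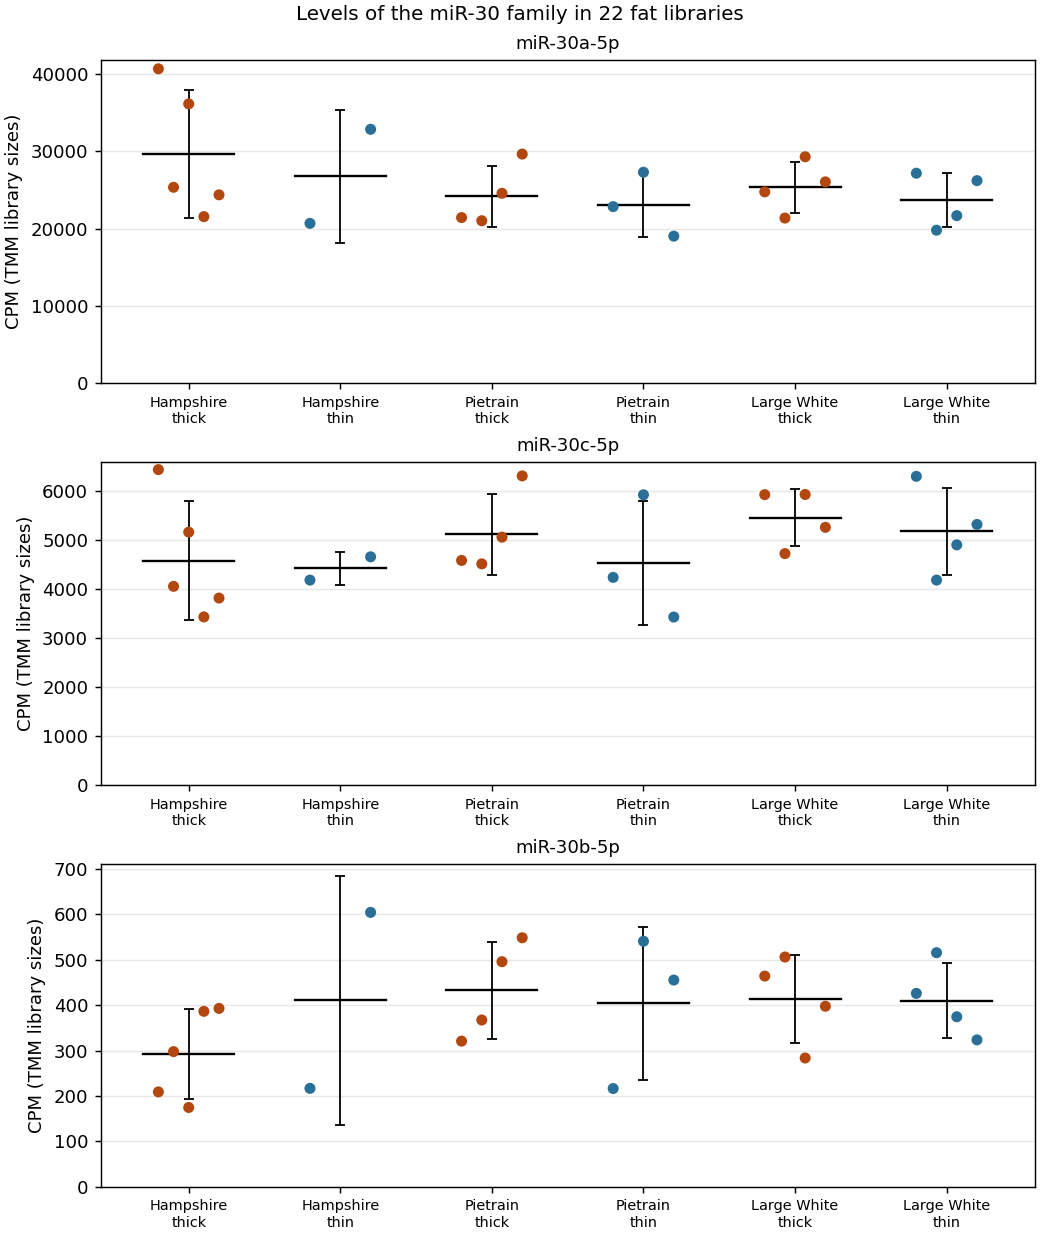
Levels of miR-30a-5p, miR-30c-5p and miR-30b-5p (CPM on TMM library sizes, linear axes from 0) in each library of the 6 groups, thick fat in orange and thin fat in blue; lines and bars are the group mean and SD. Thick and thin fat overlap within each breed for each member, and Hampshire thick replicate 1 has the highest miR-30a-5p and miR-30c-5p.

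Most libraries held similar amounts of miR-30a-5p, and the widest spread was among Hampshire pigs. In Hampshire thick fat it had 40640.5, 25329, 36108, 21534 and 24351 CPM, and in Hampshire thin fat 20665 and 32820.1 CPM. In Pietrain thick fat it had 21414, 21006, 24549 and 29621 CPM, and in Pietrain thin fat 22831, 27275 and 19015 CPM. In Large White thick fat it had 24734, 21351, 29273 and 26027 CPM, and in Large White thin fat 27146, 19785, 21662 and 26189 CPM. In each breed the thick and thin libraries overlapped. Thick replicates 1 and 3 and thin replicate 2 of Hampshire lay above every Pietrain and Large White library, and the other 4 Hampshire libraries lay within the range of those breeds.

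miR-30c-5p kept within a 1.88-fold range. In Hampshire thick fat it had 6427, 4048, 5152, 3425 and 3809 CPM, and in Hampshire thin fat 4175 and 4649 CPM. In Pietrain thick fat it had 4576, 4506, 5050.4 and 6298 CPM, and in Pietrain thin fat 4230.1, 5914 and 3422 CPM. In Large White thick fat it had 5917, 4715, 5920 and 5250.4 CPM, and in Large White thin fat 6289, 4175, 4893 and 5309 CPM. In each breed the thick and thin libraries overlapped, and the lowest values were in Pietrain thin replicate 3 and Hampshire thick replicate 4.

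miR-30b-5p, the member described in mouse as a partner of miR-30c in thermogenic fat cells, varied most of the 3. In Hampshire thick fat it had 209, 298, 175, 386 and 393 CPM, and in Hampshire thin fat 217 and 604 CPM. In Pietrain thick fat it had 321, 367, 496 and 549 CPM, and in Pietrain thin fat 216, 541 and 455 CPM. In Large White thick fat it had 464, 506, 284 and 398 CPM, and in Large White thin fat 426, 516, 374 and 324 CPM. Its lowest and highest libraries were both Hampshire, 3.46-fold apart. The SD of log2 CPM over the 22 libraries was 0.284 for miR-30a-5p, 0.275 for miR-30c-5p and 0.505 for miR-30b-5p. The median was 0.461 over the 92 names with reads in every library and a mean of at least 100 CPM. Only 8 of these names had a smaller SD than miR-30c-5p and 12 a smaller one than miR-30a-5p, while 56 had a smaller one than miR-30b-5p.

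The names most like miR-30a-5p across libraries were found by the SD of the log2 ratio of their count to its count, over 22 libraries and 89 other names with reads in all of them and a mean of at least 100 CPM. miR-181a, known for roles in lymphocyte development, had the smallest SD, 0.186, followed by miR-99b (0.236), miR-191 (0.255), miR-139-5p (0.256) and miR-378 (0.280), the last being encoded within the gene of the metabolic coactivator PGC-1β in mammals. miR-30c-5p itself had an SD of 0.231, below that of miR-99b, whereas miR-30b-5p had 0.642 and ranked 63. The median over the 89 names was 0.499. Within a library all names share its depth and tissue, so these values are a description and no test was attached to them.

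Thick fat was compared with thin fat to ask which miRNAs go with fatness. No member passed the test between fat classes in any breed or over all breeds. Over all 22 libraries with breed as a term, miR-30a-5p averaged 26610.5 ± 5986 CPM in thick fat (SD, n = 13) and 24154 ± 4522 CPM in thin fat (SD, n = 9). Its log2 fold change, thick minus thin, was 0.11 ± 0.11 (SE; edgeR quasi-likelihood test, Benjamini-Hochberg adjusted p = 0.996). miR-30c-5p averaged 5007 ± 949 CPM in thick fat and 4784 ± 918 CPM in thin fat (SD, n = 13 and 9), with a log2 fold change of 0.11 ± 0.10 (SE; edgeR adjusted p = 0.996). miR-30b-5p averaged 373 ± 114 CPM in thick fat and 408 ± 138 CPM in thin fat (SD, n = 13 and 9), with a log2 fold change of -0.08 ± 0.21 (SE; edgeR adjusted p = 0.996). Over all names, edgeR called 0 of 182 (0%), with 3 at an unadjusted p under 0.05. The 3 members also failed to pass with DESeq2, where 1 name passed, and with limma-voom.

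The intervals show what the design could see. Over all breeds, the 95% interval of the thick over thin ratio ran from 0.926 to 1.26 for miR-30a-5p, from 0.929 to 1.26 for miR-30c-5p and from 0.696 to 1.29 for miR-30b-5p. Within a breed they were wider, and in Hampshire, with 2 thin libraries, the interval of miR-30a-5p ran from 0.716 to 2.01. A p that misses the threshold does not show that the level was equal, and in bulk tissue fewer cells of a type and less RNA per cell cannot be told apart.

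Within Hampshire fat, the log2 fold change, thick minus thin, was 0.26 ± 0.32 for miR-30a-5p, 0.18 ± 0.28 for miR-30c-5p and -0.35 ± 0.54 for miR-30b-5p (SE; edgeR adjusted p = 0.961 each), and edgeR called 0 of 172 names (0%). With upper quartile scaling, which moved the median of all names to -0.21 on the log2 scale, those of miR-30a-5p and miR-30c-5p became -0.02 and -0.08. Within Pietrain fat they were 0.07 ± 0.17 for miR-30a-5p, 0.19 ± 0.21 for miR-30c-5p and 0.09 ± 0.36 for miR-30b-5p (SE; edgeR adjusted p = 0.993 each), with 0 of 161 names (0%) called. Within Large White fat they were 0.10 ± 0.15, 0.08 ± 0.16 and 0.02 ± 0.24 in the same order of members (SE; edgeR adjusted p = 0.958 each), with 0 of 170 names (0%) called. With the 2 doubtful Large White libraries exchanged, that of miR-30a-5p was 0.15, that of miR-30c-5p 0.11 and that of miR-30b-5p -0.07, and with both left out 0.17, 0.13 and -0.03. At an unadjusted p under 0.05, edgeR had 5 names in Hampshire, 4 in Pietrain and 2 in Large White, and with DESeq2 3, 1 and 0 names passed after adjustment, none of them a member. The interaction of fat class and breed had an edgeR p of 0.703 for miR-30a-5p, 0.798 for miR-30b-5p and 0.864 for miR-30c-5p before adjustment; of 182 names 0 were called (0%), and 10 were under 0.05 before adjustment, with 2 names called by DESeq2 and no member among them.

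Ratios inside a member, which do not depend on library scaling, were also compared between fat classes. The 9 measures were, for the members that had them, the share of the leading sequence, the mean read length, the share of reads with a shifted start and the share of the passenger strand of miR-30c. The value tested was the difference, thick minus thin, within each breed, averaged over the breeds. None passed, the smallest p being 0.214 for the share of the leading miR-30a-5p sequence, with a difference of 1.99 percentage points (exact two-sided permutation test within breeds, 51450 arrangements, n = 13 and 9, adjusted p = 0.843 over the 9 measures). The plain means of this share were 24.1% in thick fat and 22.5% in thin fat. A further 8 measures, chosen after the data had been seen, cover the shares and read lengths of the forms and the ratios between members. None of these passed either (smallest exact permutation p = 0.270, adjusted p = 0.735). The C12 form held 56.9% of miR-30a-5p reads in thick fat and 55.4% in thin fat as plain means, and the difference tested was 2.27 percentage points.

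The authors' deposited table of fat classes is per sequence and gives its log2 fold change as thin minus thick, as found from the values. In Pietrain it called 11 of the 129 miR-30a-5p sequences with an adjusted p, beside 89 of 4699 sequences of all names (1.89%), and none of miR-30b-5p or miR-30c-5p. In Large White (0% of 6771) and Hampshire (0.0187% of 5339) the authors' deposited table called none of the family. The 11 sequences were rare variants with 0 to 118 reads a library, and each differed at 1 base from the sequence of its form. Of them, 8 carried A20C, 1 A20U and 1 A21G, all higher in thin fat, and 1 carried U1G and was higher in thick fat. The A21G and A20U calls each rest on 1 sequence. Summed over sequences, A21G had 168, 232, 37 and 84 reads in Pietrain thick libraries and 120, 147 and 105 in thin ones. A20U had 73, 94, 19 and 15 reads in thick libraries and 51 and 69 in thin replicates 1 and 2. All miR-30a-5p reads numbered 60737, 70907, 18816 and 30023 in thick libraries and 40097, 42760 and 30820 in thin ones. Examples are shown with the changed base in capitals.
A20C in the U12 form: uguaaacauccucgacuggCagcu
A20U in the U12 form: uguaaacauccucgacuggUagcu
A20C in the C12 form: uguaaacauccccgacuggCag
U1G in the C12 form: Gguaaacauccccgacuggaa
The first had 0, 8, 0 and 0 reads in the 4 Pietrain thick libraries, and 77, 118 and 72 reads in the 3 Pietrain thin libraries. Its log2 fold change in the authors' deposited table was 5.93 ± 0.90 (SE, thin minus thick) with an adjusted p of 3.33e-08. The leading miR-30a-5p sequence, by contrast, had -0.28 ± 0.23 in the authors' deposited table with an adjusted p of 1.00.

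Summed over miR-30a-5p, A20C was taken as a share of reads with A or C at that base and the first 10 bases of the leading sequence. It made up 0.0119%, 0.0306%, 0% and 0% of these reads in Pietrain thick fat, and 0.882%, 1.17% and 0.920% in Pietrain thin fat. It was at most 0.0308% in each Large White and Hampshire library, thin fat included. The same change was looked for in other names with A at base 20 and at least 1000 reads there in every Pietrain library, of which there were 2. miR-103, a miRNA tied to insulin sensitivity in mouse, had 0.0522%, 0.0340%, 0% and 0% in Pietrain thick fat and 0.432%, 0.474% and 0.419% in Pietrain thin fat. miR-101 had 0% in each Pietrain thick library and 0%, 0.225% and 0.253% in Pietrain thin fat, and outside Pietrain it had 0.146% in Hampshire thin replicate 2 and 0% in the other libraries. Since the smallest deposited count above 0 was 6, a 0% in these values covers up to 5 reads per sequence. That limit weighs most on names and libraries with few reads at this base. The change was chosen after its values were seen, so no test was run. Fat class and any difference in how the Pietrain libraries were prepared or sequenced cannot be told apart here.

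**Figure D2:**
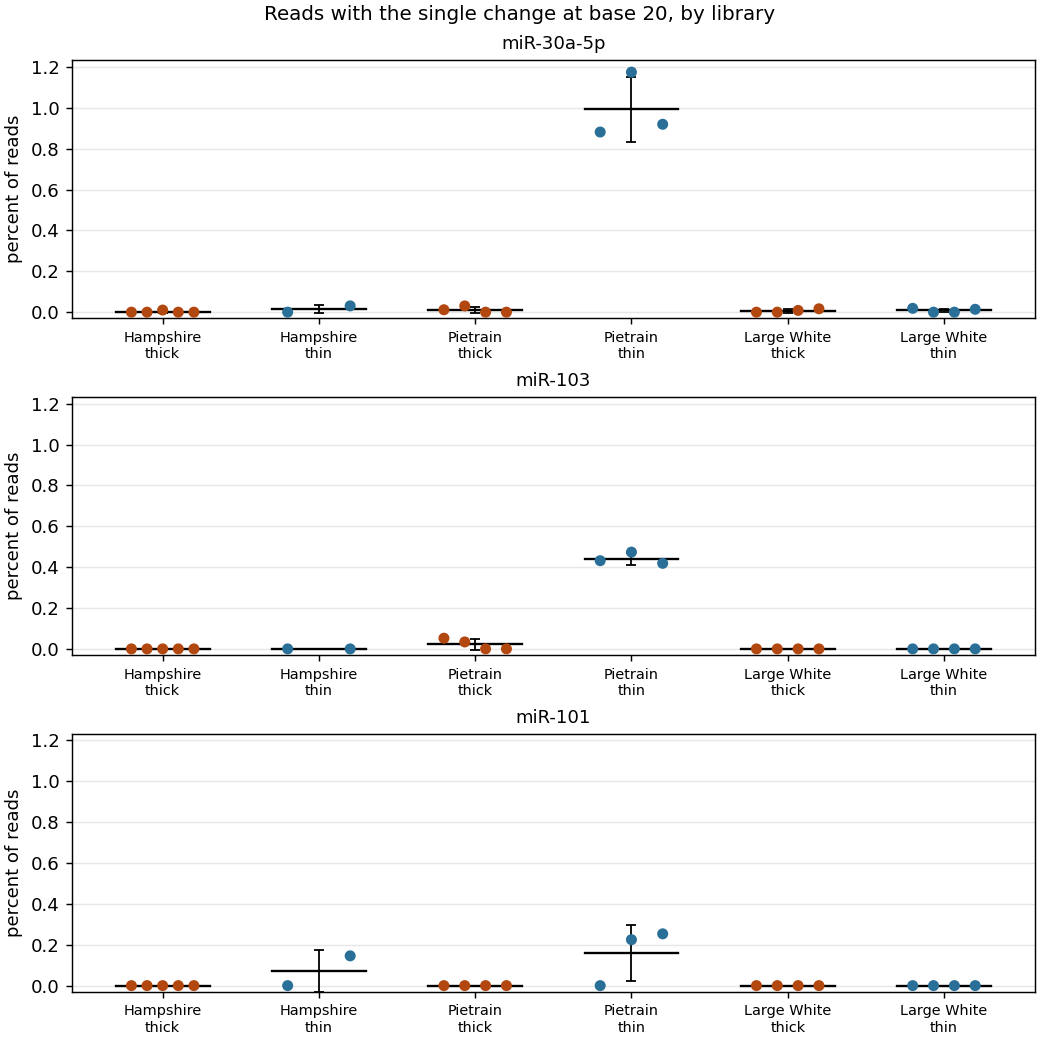
Percent of reads with the change A20C, among reads with the original or the changed base there, for miR-30a-5p, miR-103 and miR-101 in each library (points), with group mean and SD. Pietrain thin fat stands at 0.882% to 1.17% for miR-30a-5p, and every other library at 0.0308% or less.

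Breeds were compared next, with thick and thin fat weighted equally in the edgeR tests. The shares, ratios and read lengths further down use plain means over the libraries of a breed, with thick and thin fat not weighted equally. No member passed the test in any pair of breeds by the main settings. miR-30c-5p came nearest, in Hampshire against Large White. It averaged 4526 ± 1008 CPM in Hampshire (SD, n = 7) and 5309 ± 709 CPM in Large White (SD, n = 8), a log2 fold change of -0.28 ± 0.14 (SE; edgeR adjusted p = 0.162), where edgeR called 28 of 182 names (15.4%). With upper quartile scaling it was -0.58 (edgeR adjusted p = 0.00935) and with library totals only -0.54 (edgeR adjusted p = 0.0439), while these scalings moved the median of all names to -0.35 and -0.31. Over the other alternatives and left-out libraries its adjusted p went up to 0.421. miR-30a-5p had a log2 fold change of 0.15 ± 0.14 (SE; edgeR adjusted p = 0.514), which became -0.14 and -0.10 under those 2 scalings, and miR-30b-5p one of -0.30 ± 0.28 (SE; edgeR adjusted p = 0.525).

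Against Pietrain, the log2 fold change in Hampshire was 0.22 ± 0.14 for miR-30a-5p (SE; edgeR adjusted p = 0.316), -0.12 ± 0.14 for miR-30c-5p (SE; edgeR adjusted p = 0.557) and -0.31 ± 0.29 for miR-30b-5p (SE; edgeR adjusted p = 0.493), with 32 of 182 names called (17.6%). With upper quartile scaling, which moved the median of all names to -0.29, that of miR-30a-5p was -0.04 and that of miR-30c-5p -0.40 (edgeR adjusted p = 0.0636). The Pietrain minus Large White values were -0.07 ± 0.13 for miR-30a-5p, -0.16 ± 0.13 for miR-30c-5p and 0.01 ± 0.26 for miR-30b-5p (SE; edgeR adjusted p of 0.743 or more), with 0 of 182 names (0%) called, 14 at an unadjusted p under 0.05 and 4 called by DESeq2, none of them a member. With complete sequences alone, those with reads in every library of their table, 29 of 138 names were called, again with no member among them. A sequence that was incomplete in the table of a breed counted as 0 in all libraries of that breed. This setting can therefore create breed differences by itself. The Hampshire libraries serve in both of the first 2 comparisons. No label says which libraries were prepared or sequenced together, so breed and any such batch cannot be told apart.

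**Figure D3:**
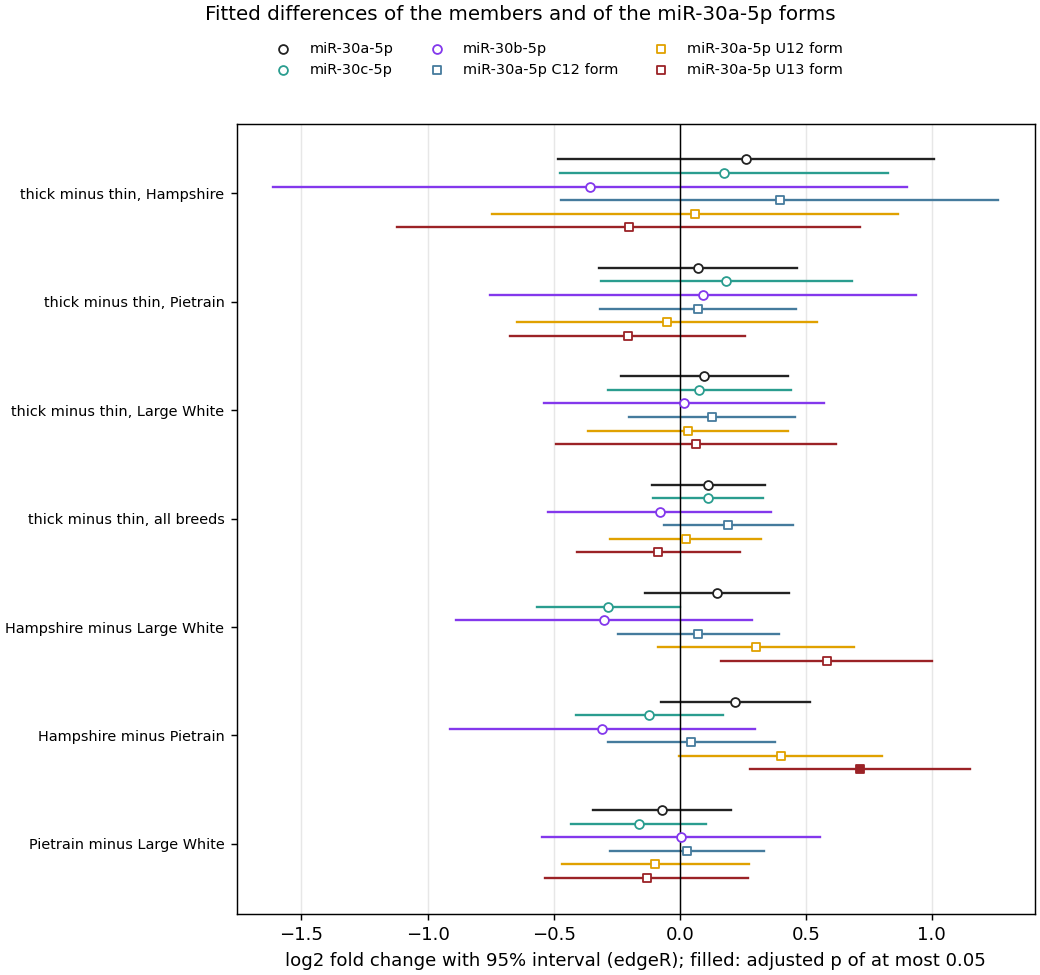
Log2 fold changes with 95% intervals from edgeR for the 3 members (circles) and for the 3 forms of miR-30a-5p fitted as separate rows (squares), by comparison; filled symbols passed an adjusted p of 0.05. The U13 form in Hampshire minus Pietrain, at 0.71, is the filled one.

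Splitting miR-30a-5p into its forms, a step added after the data had been seen, put the rarest form higher in Hampshire than in Pietrain fat by the main settings. The U13 form had 452, 251, 340, 431 and 487 CPM in Hampshire thick fat and 332 and 629 CPM in Hampshire thin fat. In Pietrain it had 214, 242, 248 and 277 CPM in thick fat and 220.4, 328 and 273 CPM in thin fat. In Large White it had 360.2, 244, 297 and 288 CPM in thick fat and 402, 213, 256 and 255 CPM in thin fat. Hampshire thick replicate 2 lay within the Pietrain range and the other 6 Hampshire libraries above it. Against Pietrain its log2 fold change was 0.71 ± 0.21 (SE; edgeR adjusted p = 0.0221), with 34 of 184 rows called (18.5%). Against Large White it was 0.58 ± 0.20 (SE; edgeR adjusted p = 0.0502), with 32 of 184 rows called (17.4%) and the form just above the threshold of 0.05.

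These calls were not stable. Against Pietrain the adjusted p rose to 0.108 with upper quartile scaling, 0.0878 with library totals only, 0.0597 with limma-voom, 0.0633 without Pietrain thin replicate 1 and 0.222 without Hampshire thin replicate 2, where the log2 fold change was 0.43. Against Large White the log2 fold change of the U13 form was 0.30 without Hampshire thin replicate 2 (edgeR adjusted p = 0.445) and 0.28 with library totals only. The form passed there with DESeq2 (adjusted p = 0.0150), with DESeq2 size factors in edgeR (adjusted p = 0.0337) and with the 2 doubtful libraries exchanged (edgeR adjusted p = 0.0489) or left out (log2 fold change 0.76, edgeR adjusted p = 0.0159). It also passed, with edgeR adjusted p of 0.0174 to 0.0448, without Hampshire thick replicate 2 or 3, Hampshire thin replicate 1, Large White thick replicate 1 or Large White thin replicate 1. The U12 form had a log2 fold change of 0.40 ± 0.19 against Pietrain (SE; edgeR adjusted p = 0.162) and 0.30 ± 0.18 against Large White (SE; edgeR adjusted p = 0.277). Without Hampshire thin replicate 2 they were 0.05 and -0.05, and without Hampshire thin replicate 1 they were 0.64 and 0.54. Against Pietrain the U12 form passed with complete sequences (0.45, edgeR adjusted p = 0.0482), a setting that can itself create breed differences. The C12 form had 0.05 ± 0.16 against Pietrain and 0.07 ± 0.15 against Large White (SE; edgeR adjusted p = 0.889 and 0.807), and both were below 0 with upper quartile scaling and with library totals only.

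**Figure D4:**
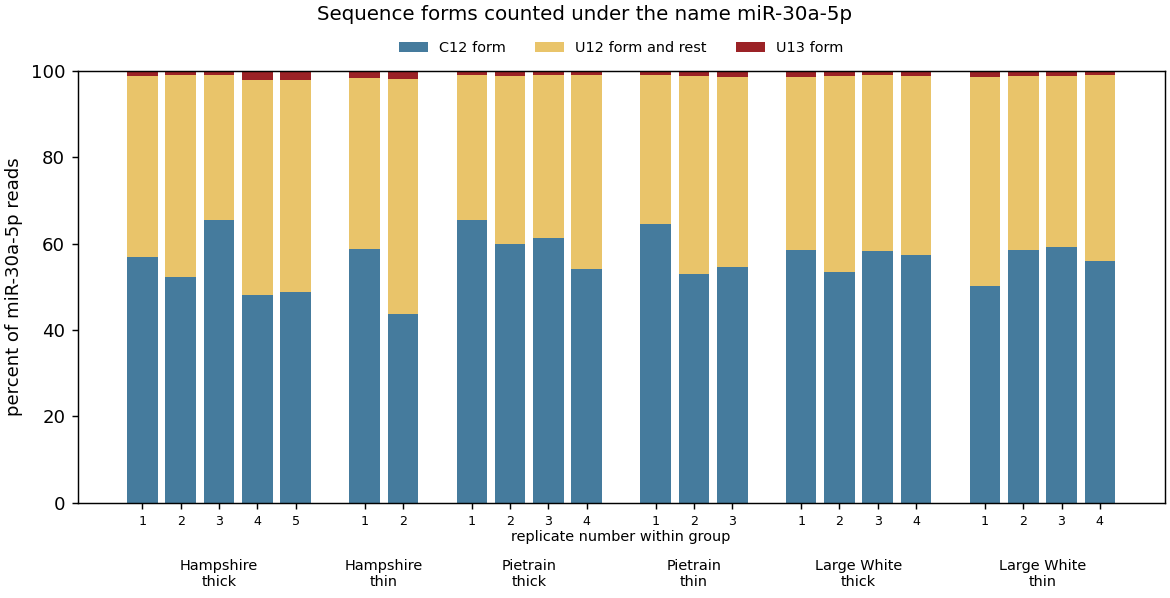
Share of the C12 form, the U12 form (with 3 further sequences) and the U13 form among miR-30a-5p reads in each library, in percent, by group. The C12 share runs from 43.8% in Hampshire thin replicate 2 to 65.5% in Hampshire thick replicate 3.

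The mix of forms had its widest spread among the Hampshire libraries. The C12 form held 53.4% ± 7.45 of miR-30a-5p reads in Hampshire fat (SD, n = 7), 58.9% ± 5.15 in Pietrain fat (SD, n = 7) and 56.4% ± 3.12 in Large White fat (SD, n = 8). No pair of breeds differed in it beyond this spread (smallest exact two-sided permutation p = 0.132, adjusted p = 0.218 over 24 tests). The U13 form held 1.51% ± 0.485 in Hampshire fat and 1.1% ± 0.177 in Pietrain fat (SD, n = 7 each; exact permutation p = 0.0653, adjusted p = 0.174). It was 2.00% in Hampshire thick replicates 4 and 5, 1.92% in Hampshire thin replicate 2 and 0.941% in Hampshire thick replicate 3.

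By the main settings, the balance between miR-30c-5p and miR-30a-5p, the latter with its 3 forms summed, differed between Hampshire and both other breeds. With edgeR, 15.4% of all names differed between Hampshire and Large White and 17.6% between Hampshire and Pietrain. Ratios between names outside the family were not compared, so whether such a shift is particular to this pair was not tested. miR-30c-5p held 13.6% ± 1.46 of family reads in Hampshire fat (SD, n = 7), 16.7% ± 1.04 in Pietrain fat (SD, n = 7) and 17.6% ± 0.949 in Large White fat (SD, n = 8). The log2 ratio of miR-30c-5p to miR-30a-5p was -2.66, -2.65, -2.81, -2.65 and -2.68 in Hampshire thick fat and -2.31 and -2.82 in Hampshire thin fat. In Pietrain fat it ran from -2.47 to -2.21 with a mean of -2.30, and in Large White fat from -2.31 to -2.06 with a mean of -2.21. Hampshire thin replicate 1 lay within the other breeds' ranges and the other 6 Hampshire libraries below both.

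The difference in that ratio was -0.45 against Large White (exact two-sided permutation test, 6435 arrangements, n = 7 and 8, p = 0.000311, adjusted p = 0.00497) and -0.36 against Pietrain (exact permutation, 3432 arrangements, n = 7 each, p = 0.00175, adjusted p = 0.0105), adjusted over the 24 added tests. Pietrain minus Large White was -0.09 (exact permutation p = 0.123, adjusted p = 0.218). With medians the Hampshire difference was -0.45 against Large White and -0.43 against Pietrain, and both calls were lost (exact permutation, adjusted p = 0.0647). Being a ratio within a library, it does not move with scaling. The ratio was among the measures chosen after the data had been seen. In thick fat libraries alone it was -0.47 against Large White and -0.45 against Pietrain, where the smallest adjusted p was 0.0952 and 5 against 4 libraries allow no p under 0.00794. Hampshire thin replicate 1 was also the library richest in miR-122, a liver miRNA, at 22174 CPM. The next richest, Hampshire thick replicate 3 at 13248 CPM, had a ratio of -2.81, near the other end of the Hampshire range. A link between miR-122 and the ratio was not tested. The ratios of miR-30b-5p to the other members did not pass in any pair (smallest exact permutation p = 0.0816, adjusted p = 0.191).

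Reads of miR-30c-5p were slightly shorter in Hampshire fat than in both other breeds. Their mean length was 23.08 ± 0.016 nt in Hampshire fat (SD, n = 7), 23.17 ± 0.031 nt in Pietrain fat (SD, n = 7) and 23.17 ± 0.039 nt in Large White fat (SD, n = 8). Every Hampshire library lay below every Pietrain library, which held for 21 of the 92 names compared (22.8%). The difference was -0.0852 nt against Pietrain and -0.0829 nt against Large White, beside medians of -0.0815 and -0.0878 nt over these names. It passed against both breeds (exact two-sided permutation p = 0.000583 and 0.000777, adjusted p = 0.0105 each over 27 tests). Both calls were lost with medians in place of means (adjusted p = 0.126 by exact permutation) and in thick fat alone (adjusted p = 0.107). The sequence of miR-30c-5p that ends in agcu, rank 2 in the sequences shown above, held 16.9% ± 2.04 of its reads in Hampshire fat, 20.5% ± 1.88 in Pietrain fat and 20.4% ± 2.06 in Large White fat (SD, n = 7, 7 and 8). For miR-30a-5p the length was 22.69 ± 0.070 nt in Hampshire fat and 22.80 ± 0.049 nt in Large White fat (SD, n = 7 and 8; exact permutation p = 0.00373, adjusted p = 0.0336). That call was lost (adjusted p up to 0.0719) on leaving out any 1 of 10 libraries: Hampshire thick replicate 1, 3 or 5, Hampshire thin replicate 1, Large White thick replicate 2, 3 or 4, or Large White thin replicate 1, 3 or 4. It was also lost with the 2 doubtful Large White libraries left out (exact permutation, adjusted p = 0.0629). Against Pietrain, where miR-30a-5p averaged 22.76 ± 0.049 nt, the adjusted p was 0.225 by the exact permutation test. miR-30b-5p averaged 21.80 ± 0.078 nt in Hampshire fat, 21.84 ± 0.038 nt in Pietrain fat and 21.88 ± 0.040 nt in Large White fat, and did not pass against either (SD, n = 7, 7 and 8; exact permutation, adjusted p = 0.410 and 0.161).

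The read lengths of the miR-30a-5p forms were among the measures chosen after the data had been seen. The U12 form averaged 22.98 ± 0.088 nt in Hampshire fat, 23.16 ± 0.075 nt in Pietrain fat and 23.18 ± 0.057 nt in Large White fat (SD, n = 7, 7 and 8; exact permutation, adjusted p = 0.0117 against Pietrain and 0.00497 against Large White). Both U12 calls were lost with medians (exact permutation, adjusted p = 0.0932 and 0.0622). The U13 form averaged 22.65 ± 0.22 nt in Hampshire fat, 22.89 ± 0.10 nt in Pietrain fat and 23.01 ± 0.092 nt in Large White fat (SD, n = 7, 7 and 8; exact permutation, adjusted p = 0.0480 and 0.00497). Against Pietrain the U13 call was lost without any 1 of 11 libraries, namely each Pietrain library, Hampshire thick replicates 3 and 5 and both Hampshire thin libraries. With medians it was lost as well (exact permutation, adjusted p = 0.0932). The C12 form passed against Large White, at 22.44 ± 0.040 nt in Hampshire fat and 22.52 ± 0.040 nt in Large White fat (SD, n = 7 and 8; exact permutation, adjusted p = 0.0117), while it was 22.48 ± 0.061 nt in Pietrain fat (exact permutation, adjusted p = 0.218), and whether these 2 differences differ was not tested. In thick fat alone each call on the length of a form was lost (exact permutation, adjusted p of 0.1905 to 0.3598).

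Shorter reads in Hampshire were widespread among the names. The 92 names compared had reads in every library and a mean of at least 100 CPM. Of them, 85 had a shorter mean length in Hampshire than in Large White fat, with a median difference of -0.0878 nt, and 26 did so with no overlap (28.3%). Against Pietrain, 78 of 92 were shorter and 21 did not overlap (22.8%). A larger decrease than that of miR-30c-5p was seen in 48 of the 92 names against Large White and in 43 against Pietrain. Reads of all other names averaged 21.76 ± 0.053 nt in Hampshire fat, 21.85 ± 0.039 nt in Pietrain fat and 21.84 ± 0.036 nt in Large White fat (SD, n = 7, 7 and 8). The part of this shift in the family's lengths was not tested.

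**Figure D5:**
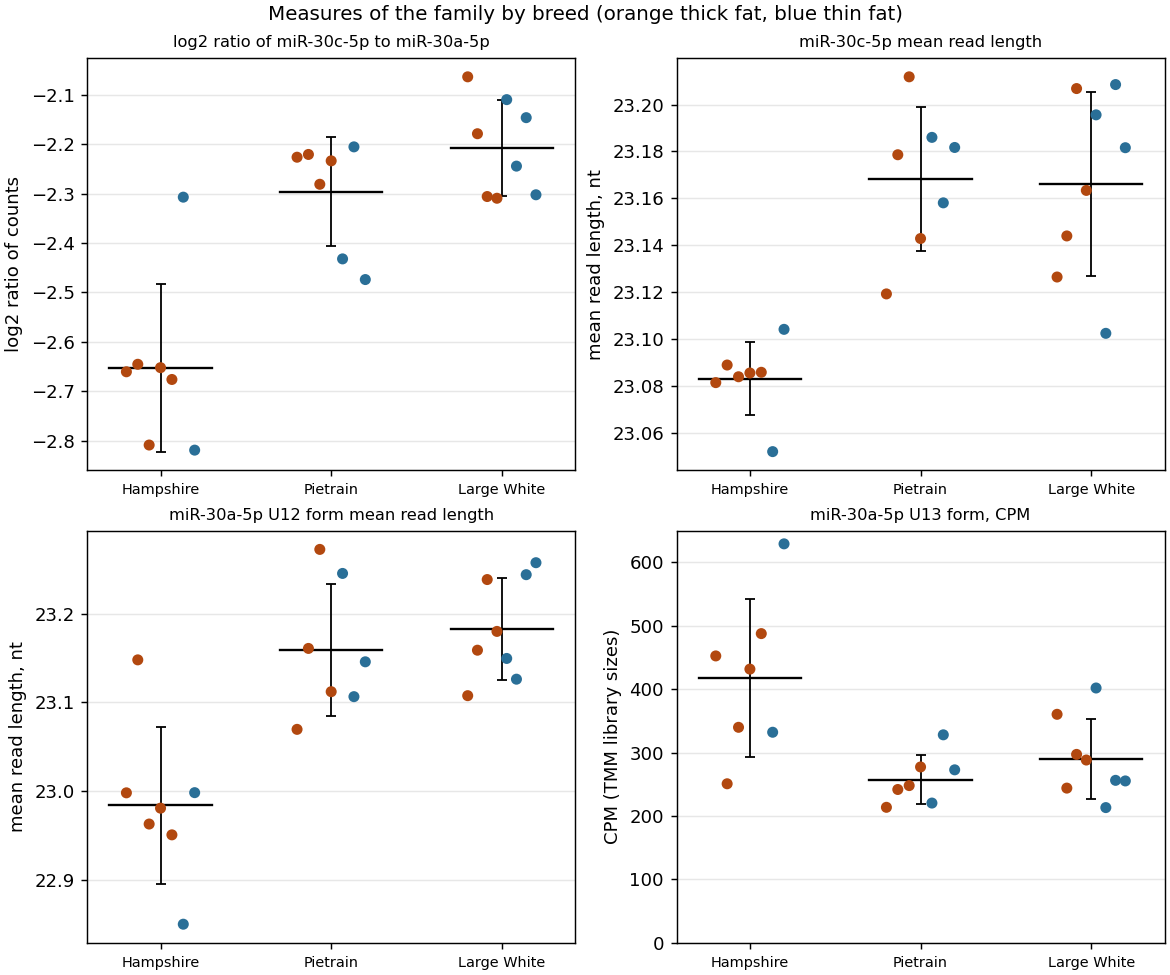
By breed, each library's log2 ratio of miR-30c-5p to miR-30a-5p counts, mean read length (nt) of miR-30c-5p and of the miR-30a-5p U12 form, and CPM of the U13 form, with mean and SD; thick fat orange, thin fat blue. Hampshire averages -2.65 in the ratio, against -2.30 in Pietrain and -2.21 in Large White; axes other than that of CPM do not start at 0.

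Other miRNAs with known roles in fat cells give the setting. None of the 10 tested promoters of fat cell differentiation, the 11 repressors or the 9 miRNAs of thermogenic fat passed edgeR's test between thick and thin fat over all breeds, with medians of -0.06, 0.03 and 0.07 on the log2 scale beside 0.005 over all names. Between Hampshire and Large White fat, where 15.4% of all names passed, 1 promoter rose, miR-148a-3p, an abundant fat miRNA (log2 fold change 0.82 ± 0.15, SE; edgeR adjusted p = 0.000854), and 3 fell: miR-103 (-0.97 ± 0.18), miR-17-5p (-0.72 ± 0.20) and miR-20a (-0.79 ± 0.18), the last 2 being from the miR-17-92 cluster of growth-promoting miRNAs. Of the repressors, miR-27a, which targets the fat cell regulator PPARγ, rose (0.98 ± 0.15, SE; edgeR adjusted p = 0.000355) and miR-145-5p was called lower with libraries at 0, so no fold is given. Among the thermogenic miRNAs, miR-32 and miR-455-5p, which promote brown fat in mouse, rose (1.44 ± 0.24 and 0.95 ± 0.18) and miR-365-3p fell (-0.90 ± 0.23, SE; edgeR adjusted p = 0.00975). The list medians were -0.12 for promoters, -0.10 for repressors and 0.12 for thermogenic miRNAs, beside -0.03 over all names. Against Pietrain, where 17.6% of all names passed, the same names passed in the same directions, and miR-182 rose as well (1.22 ± 0.37, SE; edgeR adjusted p = 0.0266), with medians of -0.12, -0.14 and 0.02 beside -0.05 over all names. The miR-30 members had values of -0.31 to 0.22 in these 2 comparisons.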

How the data were processed

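Small RNA libraries of 22 animals were made with an adapter ligation kit, per the labels' protocols. The authors deposited 3 tables, 1 for each breed, of whole-number counts per distinct sequence with a miRNA name. Their 3 comparison tables, per the file headers, hold a mean normalized signal (baseMean), a log2 fold change with its SE, a test score (stat) and p-values, and DESeq2, bcl2fastq, FastQC and the build Sscrofa10.2 are named per the submitters' processing notes. The aligner, trimmer and miRNA annotation are not given in the sources used here, nor are the sizes behind the fat classes. Library totals ran from 431542 to 3137757 reads. PCR reads carried no molecular identifiers here, so they are not independent molecules, and unnamed sequences (0.0480% of reads) stayed out of the tests.

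Counts were summed per name and tested with edgeR 4.0.16 in R 4.3.3 (TMM, filterByExpr, robust quasi-likelihood fit, Benjamini-Hochberg adjusted p of at most 0.05 over all names). Breed pairs and the interaction used 6 group means, and fat over all breeds an additive term for breed. Shares, read lengths and ratios were compared by exact two-sided permutation of libraries. For breed pairs this used plain library means, without equal weight for thick and thin fat. Alternatives used DESeq2 1.42.0, limma 3.58.1, other scalings and filters, and left-out libraries. The fits were tested on simulated data. Members were all names of the family, the names most like miR-30a-5p the 5 with the smallest SD of the log2 count ratio, and the other names those of the fixed lists that passed. Members, lists and forms were chosen with earlier results of these data known. The labels do not say how animals were paired or batched, so p-values measure only the spread between these libraries.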

Additional observations from a re-analysis of the deposited data

Results flagged for a closer look

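Of 92 groups of 4 or 5 libraries examined for a library far from the rest, 5 held one by Dixon's test, and chance gives about 1 in 20 groups. The U12 form of miR-30a-5p stood at 17062 CPM in Hampshire thick replicate 1, against 10766 to 12100.7 CPM in the other 4 Hampshire thick libraries. The leading sequence of miR-30b-5p held 76.7% of its reads in Hampshire thick replicate 2, the smallest library, which had 133 reads of that name, against 61.5% to 64.8% in the other 4. The mean read length of the U12 form was 23.15 nt in the same library, against 22.95 to 22.998 nt in the other 4. The log2 ratio of miR-30c-5p to miR-30a-5p was -2.81 in Hampshire thick replicate 3, against -2.68 to -2.65 in the other 4. Reads of miR-30c-5p with a shifted start were 0.0412% in Large White thick replicate 3 and 0% in the other 3 Large White thick libraries. Since the smallest deposited count above 0 was 6, a 0% there covers up to 5 reads per sequence, so this flag is uncertain.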

How the results depend on the processing

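No paired analysis was possible because the labels give no replicate numbers shared between groups. No alternative made a member pass between fat classes. Between Hampshire and Large White, 1 member, miR-30c-5p, passed with upper quartile scaling and 1, the same, with library totals only. Over all names, Hampshire against Large White had 28 calls, 48 with DESeq2 and 67 of 138 names with complete sequences (those with reads in every library of their table), Hampshire against Pietrain 32, 47 and 72, and Pietrain against Large White 0, 4 and 29. The setting with complete sequences sets a sequence to 0 in every breed where it is incomplete. Its counts between breeds, here and below, therefore do not test how firm a breed difference is. Of measures within members that passed between breeds, 3 by the main settings, 0 passed with medians, 8 with complete sequences and 0 in thick fat alone, with 2 to 5 when a library was left out (5 without Hampshire thick replicate 2). Of the added measures, 7 by the main settings, 2 passed with medians and 0 in thick fat alone, with 6 to 7 when a library was left out. Fold changes whose sign turned are given on the log2 scale, and the cause was not tested. In Pietrain fat classes, miR-30b-5p was -0.069 with limma-voom. In Large White fat classes, miR-30b-5p was -0.0035 with DESeq2 size factors, -0.047 with upper quartile scaling, -0.098 with library totals, -0.030 with a mean CPM of at least 10, -0.0053 with DESeq2, -0.028 with limma-voom, -0.039 with complete sequences, -0.035 from the fit of 22 libraries, -0.068 with 2 libraries exchanged and -0.034 with both left out. With upper quartile scaling, Hampshire fat classes gave -0.023 for miR-30a-5p and -0.085 for miR-30c-5p. Hampshire minus Large White gave -0.14 for miR-30a-5p and -0.24 for the C12 form with upper quartile scaling, and -0.10 and -0.19 with library totals. Hampshire minus Pietrain gave -0.042 for miR-30a-5p and -0.17 for the C12 form with upper quartile scaling, and -0.13 for the C12 form with library totals. Pietrain minus Large White gave 0.022 for miR-30a-5p without the 2 doubtful libraries, and -0.049 and -0.032 for miR-30b-5p with upper quartile scaling and library totals. Leaving out a library turned the sign of miR-30a-5p (-0.050 to 0.18) and miR-30b-5p (-0.23 to 0.33) in Pietrain fat classes, of miR-30b-5p (-0.11 to 0.18) and miR-30c-5p (-0.0070 to 0.20) in Large White fat classes, of miR-30a-5p (-0.055 to 0.67) and miR-30b-5p (-0.93 to 0.61) in Hampshire fat classes and of miR-30b-5p (-0.20 to 0.088) over all breeds. Between Hampshire and Large White it did so for the C12 form (-0.029 to 0.14) and the U12 form (-0.048 to 0.54), between Hampshire and Pietrain for the C12 form (-0.037 to 0.12), and between Pietrain and Large White for miR-30a-5p (-0.12 to 0.0049) and miR-30b-5p (-0.084 to 0.16). The ratio of miR-30c-5p to miR-30a-5p passed in all 22 runs without a library, at -0.50 to -0.42 against Large White and -0.41 to -0.33 against Pietrain, and its calls were lost with medians and in thick fat alone. The smallest library held 133 reads of miR-30b-5p, the member whose values depth limits most.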
